A study of Mus musculus with 16 samples.

Results

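The balance of the transcription factors PPARγ and C/EBPα in fat cells without added rosiglitazone, a PPARγ ligand, is described here. The signal of the coactivators MED1 and CBP at the same sites is given with it. The cells were 3T3-L1 adipocytes, fat cells obtained in culture from a mouse fibroblast line. They were differentiated with dexamethasone, isobutylmethylxanthine, insulin and serum, and on day 7 received 0.1% DMSO, the solvent of the drug rosiglitazone, for 1 h. In ChIP-seq, chromatin is precipitated with an antibody against 1 protein and the recovered DNA is sequenced, so that read numbers show where the protein was bound. Of the 16 samples, 3 are PPARγ or C/EBPα in DMSO (2 of PPARγ and 1 of C/EBPα), and MED1 and CBP in DMSO have 1 each. All come from 1 cell line, and the signal of the rosiglitazone samples was not used.

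The members are the peaks of a PPARγ list and a C/EBPα list, each with the DMSO signal of all 4 antibodies. Peaks with at least 1 bp in common were merged into 1 site and measured in the PPARγ window. This left 50074 sites from the 61107 listed peaks: 19554 with a PPARγ peak only, 11034 shared and 19486 with a C/EBPα peak only.

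PPARγ is a nuclear receptor that binds DNA together with RXR and drives fat cell differentiation. C/EBPα is a basic leucine zipper factor that is needed for the same programme and shares many enhancers with PPARγ in adipocytes. Both recruit coactivators. Nuclear receptors contact the Mediator complex through its subunit MED1. CBP acetylates histones and is found at active enhancers.

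Values are the tag signal deposited by the authors, where a tag is 1 mapped read. Every value above 0 was a whole multiple of a fixed step (tolerance 0.02 steps), which gives back the number of tags in each peak. On a scale of 10 M tags per library, which the files do not state, the libraries held 11.4 M tags for PPARγ, 4.53 M for C/EBPα, 2.86 M for MED1 and 4.52 M for CBP. Each antibody has 1 DMSO column. There is thus no replicate error, no test was made, and intervals are exact 95% intervals that cover counting error only. Signals of different antibodies also differ in enrichment, so a ratio between PPARγ and C/EBPα ranks sites by balance and is no measure of molecules bound.

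The balance of PPARγ and C/EBPα differed between the 2 peak lists. Over the 30588 PPARγ peaks the median log2 ratio of C/EBPα to PPARγ, with a pseudocount of 1, was -0.92 (quartiles -2.18 and 0.22). PPARγ was at least 2-fold higher at 14399 of these peaks (47.1%) and C/EBPα at 4041 (13.2%). Over the 30519 C/EBPα peaks the median was 1.73 (quartiles 0.75 and 2.76). There C/EBPα was at least 2-fold higher at 21195 peaks (69.4%) and PPARγ at 1212 (3.97%). Each list is thus led by the factor whose peaks define it, and nothing is read from that. Over the 50074 merged sites PPARγ led by at least 2-fold at 14530 (29.0%), C/EBPα at 20250 (40.4%), and 15294 (30.5%) lay within 2-fold. The merged sites are both lists joined, so the listing shapes these shares too.

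The split between the factors moved with the scale. Dividing each factor by its median over its own list shifts all log2 ratios by 0.51. On that scale PPARγ led at 18720 sites and C/EBPα at 16317, so that PPARγ held 53.4% of the sites past 2-fold against 41.8% as deposited. At shared sites the majority changed sides as well, from 37.6% to 58.0% for PPARγ, and their median log2 ratio turned from 0.29 to -0.22. Over all merged sites it turned from 0.30 to -0.21.

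**Figure D1:**
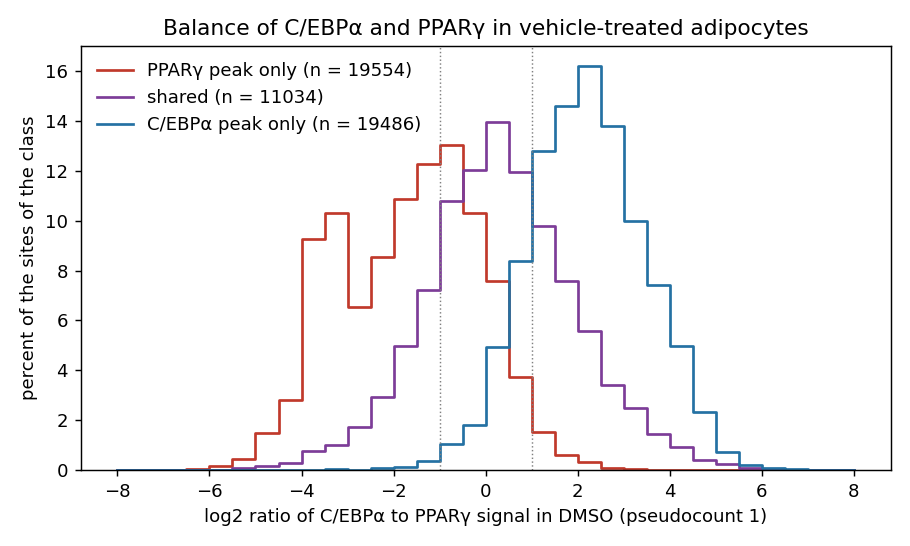
Distribution of the log2 ratio of C/EBPα to PPARγ signal in DMSO, in percent of the sites of each class, for sites with a PPARγ peak only, shared sites and sites with a C/EBPα peak only. Dotted lines mark 2-fold; the class medians are -1.56, 0.29 and 2.18, and that of shared sites turns to -0.22 when each factor is divided by its own median.

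Shared sites carry a peak of both factors, so a ratio between those of the other classes is given by the grouping. Their median log2 ratio was 0.29 (quartiles -0.74 and 1.37). Of the 11034, PPARγ led by at least 2-fold at 2130 (19.3%) and C/EBPα at 3528 (32.0%), while 5376 (48.7%) lay within 2-fold. At PPARγ-only sites the median was -1.56 and at C/EBPα-only sites 2.18. A shared peak call therefore covers a wide range of balance, with the 5th and 95th percentiles at -2.32 and 3.12.

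The mean signals show what stands behind these classes. PPARγ averaged 11.6 units at PPARγ-only sites (11.5 to 11.6), 18.2 at shared sites (18.1 to 18.3) and 3.45 at C/EBPα-only sites (3.42 to 3.47). C/EBPα averaged 3.77 (3.73 to 3.81), 28.3 (28.2 to 28.5) and 19.4 (19.4 to 19.5) in the same order. Both factors were thus higher at shared sites than at sites of their own alone. In the C/EBPα window of the shared sites, which is 230 bp long against 186 bp for PPARγ, C/EBPα averaged 36.5 and PPARγ 17.7, and the median log2 ratio was 0.83.

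Sites with 1 listed factor were not empty of the other. At PPARγ-only sites, 8323 of 19554 (42.6%, 41.9 to 43.3) had at least 4.42 units of C/EBPα, the 5th percentile of the C/EBPα list. At C/EBPα-only sites, 8545 of 19486 (43.9%, 43.2 to 44.6) reached 3.52 units of PPARγ, the 5th percentile of the PPARγ list. The median of the other list was reached by far fewer, 391 PPARγ-only sites (1.81% to 2.21%) and 638 C/EBPα-only sites (3.03% to 3.53%). These thresholds are 2 C/EBPα tags and 4 PPARγ tags, so the lower one says little about any single site. No tag of C/EBPα was seen at 30.3% of PPARγ-only sites, and no tag of PPARγ at 14.9% of C/EBPα-only sites, in libraries of unlike depth.

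Within the shared sites the strength of one factor said little about the other. Spearman's rho between PPARγ and C/EBPα was 0.13 over the 11034 shared sites, 0.02 over PPARγ-only and 0.20 over C/EBPα-only sites. Over all 50074 sites, which join a list of PPARγ peaks and a list of C/EBPα peaks, it was -0.18. What the listing adds to this value was not tested. The rho values are descriptions across sites that share the same libraries.

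Sites of higher summed signal leaned towards C/EBPα on the deposited scale. Sites were divided into 5 classes of nearly equal size by their sum. In the lowest class by summed PPARγ and C/EBPα signal, C/EBPα led by at least 2-fold at 24.4% and PPARγ at 44.8%. In the highest class the shares were 55.8% and 19.0%. The median log2 ratio went from -0.75 through -0.40, 0.58 and 0.89 to 1.37. Mean PPARγ rose from 4.32 to 21.3 units across these classes and mean C/EBPα from 2.93 to 43.4. The share of shared sites went from 4.47% to 55.8%. A sum on the deposited scale weights C/EBPα by its larger values. With C/EBPα divided by the ratio of the own-list medians, C/EBPα led at 29.3% and PPARγ at 38.2% of the lowest class, and at 40.1% and 32.8% of the highest. The median log2 ratio was then -0.17, -0.54, -0.19, 0.04 and 0.26.

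The best measured sites also fell on both sides. Among the 2363 sites with at least 50 tags of both factors together, PPARγ led by at least 2-fold at 820 (34.7%), C/EBPα at 908 (38.4%), and 635 lay within 2-fold. Most of them, 1822, were shared sites, and of these 525 were led by PPARγ and 694 by C/EBPα. The limit is set on tags, and the PPARγ library is the deeper one, so sites led by PPARγ pass it at a lower signal. A site can also pass through the factor that is high there. Over all 50074 sites the shares were 29.0% for PPARγ and 40.4% for C/EBPα. How far the limit itself shapes the split among the 2363 sites was not tested.

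The sites most strongly led by PPARγ had no C/EBPα tag at all. The first, chr5:114323239-114323425, held 234 units of PPARγ (266 tags) and 0 of C/EBPα, at least 35.3-fold higher against 3 C/EBPα tags. It held 1 tag of MED1 and 1 of CBP. A site at chr2:40335894-40336080 held 102 tags of PPARγ and 0 of the other 3 antibodies. In contrast, chr2:164291282-164291468 had 105 units of PPARγ (119 tags), 0 C/EBPα tags, 14 MED1 tags and 18 CBP tags. A further site, chr19:38840911-38841097, had 106 PPARγ tags, 0 C/EBPα tags, 13 of MED1 and 11 of CBP. Sites led by PPARγ thus occurred both with and without coactivator tags.

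At the other end stood sites with almost no PPARγ. The site at chr11:101148727-101148957 held 159 units of C/EBPα (72 tags) and 0 of PPARγ, at least 60.3-fold higher against 3 PPARγ tags. The site at chr2:30785327-30785557 held 287 units of C/EBPα (130 tags) against 1 PPARγ tag, a ratio of 326 (57.6 to 12992). These had 4 MED1 tags each and 3 and 9 CBP tags. A shared site was also among them. At chr5:135484839-135485025 C/EBPα was 426 units (193 tags) and PPARγ 2.64 units (3 tags), a ratio of 162 (54.5 to 790), with 22 MED1 and 10 CBP tags.

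Some sites carried high signals of both factors. By the lower of the 2 ranks the first was chr2:91035237-91035423, with 174 units of PPARγ and 461 of C/EBPα. The next, chr6:115469401-115469587, had 139 units of PPARγ and 795 of C/EBPα, and 580 of MED1. At chr19:61275546-61275732 the factors were nearly level, with 251 and 243 units, a PPARγ to C/EBPα ratio of 1.03 (0.825 to 1.30). High signal of both factors did not fix the coactivators. The site chr1:145480528-145480714 had 119 units of PPARγ and 245 of C/EBPα but 21.0 of MED1 and 11.1 of CBP. The site chr14:26123977-26124163, with 120 and 234 units, had 192 of MED1 and 75.2 of CBP.

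A few sites stood far above the others in summed signal. The highest sum was at chr17:39984676-39984906, with 6244 units of C/EBPα, 325 of PPARγ, 1020 of MED1 and 188 of CBP. Next came chr8:24205994-24206224, with 4487 of C/EBPα and 1111 of PPARγ but 55.9 of MED1 and 28.7 of CBP. Input chromatin was not analysed here, so the part of local background in these sites was not tested.

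Balance hardly ran in blocks along the genome. Over 3359 pairs of neighbouring sites with centres 0.5 to 1 kb apart, the log2 ratios had a Pearson r of 0.01, and over 9391 pairs 1 to 5 kb apart -0.01. At 100 kb or more, over 4936 pairs, r was 0.02. Where both neighbours were led by at least 2-fold, they were led by the same factor in 50.4% of 1399 pairs at 0.5 to 1 kb and in 52.5% of 2622 pairs at 100 kb or more. The single signals were somewhat more alike at 0.5 to 1 kb, with r of 0.12 for PPARγ, 0.07 for C/EBPα, 0.19 for MED1 and 0.10 for CBP. Pairs of shared sites gave r of 0.20 for balance over 202 pairs at 0.5 to 1 kb, 0.19 over 599 pairs at 1 to 5 kb and 0.04 over 1002 pairs at 5 to 20 kb. Listing each factor's peaks on their own also shapes these values, and its part was not tested.

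**Figure D2:**
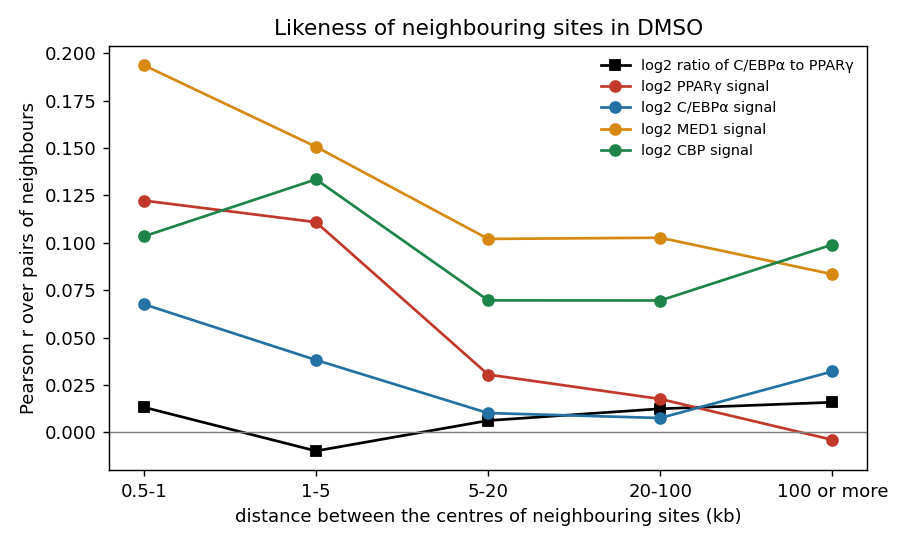
Pearson r between neighbouring sites, by the distance between their centres in kb, for the log2 ratio of C/EBPα to PPARγ and for the log2 signal of each antibody in DMSO. The ratio stays between -0.01 and 0.02 at all distances, while MED1 goes from 0.19 at 0.5 to 1 kb to 0.08 at 100 kb or more.

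Chromosomes differed little in balance. Summed over sites, C/EBPα signal was 1.37 to 1.87 times PPARγ signal on 20 chromosomes, lowest on chromosome 16 (1.37) and highest on chromosome 17 (1.87). Chromosome 17 carries the highest site named above. The median log2 ratio ranged from 0.10 on chromosome 6 to 0.65 on chromosome 10.

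Both coactivators were highest where both factors were listed. MED1 averaged 28.5 units at shared sites (28.3 to 28.7), 12.5 at PPARγ-only sites (12.4 to 12.6) and 10.2 at C/EBPα-only sites (10.1 to 10.3). CBP averaged 19.8 (19.6 to 19.9) at shared sites and, in the other order, 7.21 (7.16 to 7.27) at PPARγ-only and 8.02 (7.96 to 8.07) at C/EBPα-only sites. The C/EBPα window is wider, and per 100 bp the order of CBP turned, with 3.88 units at PPARγ-only (3.85 to 3.91) and 3.49 at C/EBPα-only sites (3.46 to 3.51). MED1 per 100 bp stayed higher at PPARγ-only sites, with 6.73 (6.68 to 6.78) against 4.42 (4.39 to 4.46). The ratio of MED1 to CBP signal was 1.73 at PPARγ-only sites (1.72 to 1.75), 1.44 at shared sites (1.43 to 1.46) and 1.27 at C/EBPα-only sites (1.26 to 1.28). This ratio is taken within 1 window and does not use its length.

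To set the factors apart, sites were placed in 5 classes by PPARγ and 5 by C/EBPα signal, with equal values kept together. The PPARγ classes began at 0, 3.52, 6.16, 9.67 and 14.1 units and the C/EBPα classes at 0, 4.42, 8.83, 13.3 and 22.1. MED1 was then read across PPARγ classes within 1 C/EBPα class, and the other way round. Sites with a C/EBPα peak only were measured in 230 bp and all others in 186 bp. Neither here nor in the model below were signals divided by window length.

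Within a C/EBPα class, MED1 was higher where PPARγ was highest. In C/EBPα class 4, where mean C/EBPα was 15.9 units at the lowest and 16.1 at the highest PPARγ, MED1 went from 7.58 (7.42 to 7.74, 4060 sites) to 34.3 (33.8 to 34.9, 1425 sites), 4.53 times as much (4.41 to 4.66). In the highest C/EBPα class it went from 13.3 to 48.6 units, 3.67 times (3.58 to 3.76). That class has no upper bound, and mean C/EBPα also went from 36.2 to 70.3 units there, so C/EBPα was not equal. In the middle class the ratio was 3.42 (3.31 to 3.54) and in the one below it 2.59 (2.51 to 2.68). The lowest C/EBPα class, with at most 2.21 units or 1 tag, gave 1.50 (1.43 to 1.56).

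That lowest C/EBPα class did not rise step by step. MED1 there averaged 9.59 units at the lowest PPARγ, then 9.83, 8.66 and 7.73, and 14.3 (14.1 to 14.6, 2733 sites) only in the highest PPARγ class. CBP was flat over the same 4 lower classes, with 5.19, 5.29, 5.12 and 5.66, and reached 11.0 (10.8 to 11.2) in the highest. Where C/EBPα was nearly absent, a coactivator signal above this level was thus seen only in the top class of PPARγ, which starts at 14.1 units. In the highest C/EBPα class, by contrast, MED1 was 18.9, 22.5 and 28.7 in the 3 middle PPARγ classes, each above the one before.

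**Figure D3:**
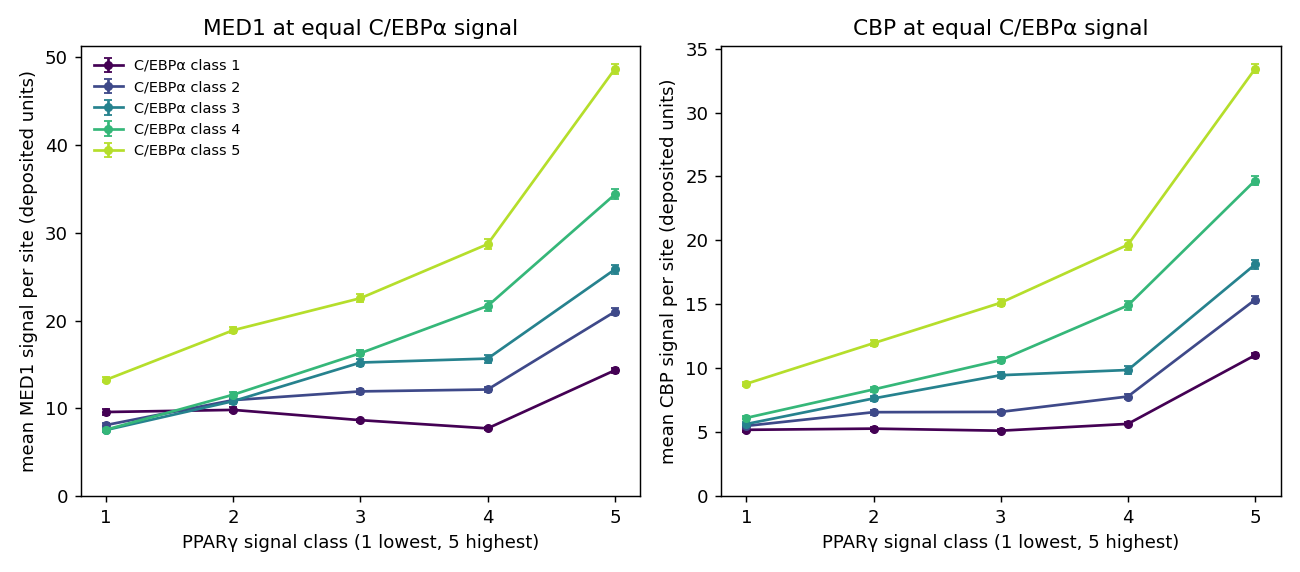
Mean MED1 (left) and CBP (right) signal per site in DMSO, in deposited units, across 5 classes of PPARγ signal, with 1 line per class of C/EBPα signal and exact 95% counting intervals as bars. In units, lines steepen with C/EBPα: MED1 goes from 9.59 to 14.3 in C/EBPα class 1 and from 13.3 to 48.6 in class 5. Along class 5 mean C/EBPα also goes from 36.2 to 70.3 units, and as a ratio the rise of MED1 is largest in class 4 (4.53 times).

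CBP also went with PPARγ within each C/EBPα class. From the lowest to the highest PPARγ class it was 2.12 times higher in the lowest C/EBPα class (2.03 to 2.22), then 2.79, 3.21 and 4.03 times, and 3.80 times (3.72 to 3.89) in the highest, where C/EBPα differed as given above. The highest mean was 33.4 units (33.1 to 33.8), where both factors were in their top class.

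C/EBPα in turn went with both coactivators within each PPARγ class. From the lowest to the highest C/EBPα class MED1 was 1.38 times higher in the lowest PPARγ class (1.32 to 1.44), then 1.92, 2.60 and 3.71 times, and 3.39 times in the highest (3.32 to 3.47). CBP gave 1.69 (1.62 to 1.77), 2.26, 2.95, 3.48 and 3.03 (2.97 to 3.09). In the highest PPARγ class mean PPARγ also went from 21.6 to 37.7 units, so PPARγ was not equal there. In both coactivators the ratio was smallest where the other factor was lowest and largest in the class before the last. Where PPARγ was lowest, MED1 fell from 9.59 to 7.54 units over the first 3 C/EBPα classes and reached 13.3 only in the last.

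The share of shared sites moved along with these classes. It was 3.82% where both factors were lowest and 90.1% where both were highest, so the grid does not separate signal from peak class. Within the shared sites alone the same directions were found in the model described next.

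A Poisson log-linear model gave 1 value per factor over all 50074 sites. MED1 tags were 1.39 times higher per doubling of PPARγ at equal C/EBPα and 1.25 times per doubling of C/EBPα at equal PPARγ. CBP gave 1.398 and 1.23. When the model was fitted on each of 20 chromosomes, the PPARγ value for MED1 ranged from 1.26 to 1.53 and the C/EBPα value from 1.16 to 1.33. For CBP the ranges were 1.27 to 1.55 and 1.17 to 1.28. The PPARγ value exceeded the C/EBPα value on 20 of 20 chromosomes for both coactivators. The PPARγ library is the deeper one. With its tags thinned at random to the depth of C/EBPα, the values were 1.32 and 1.26 for MED1 and 1.33 and 1.24 for CBP. The PPARγ value was then the higher on 19 of 20 chromosomes for MED1 and 18 of 20 for CBP. All chromosomes share the same 4 libraries, so this range is not a replicate error.

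**Figure D4:**
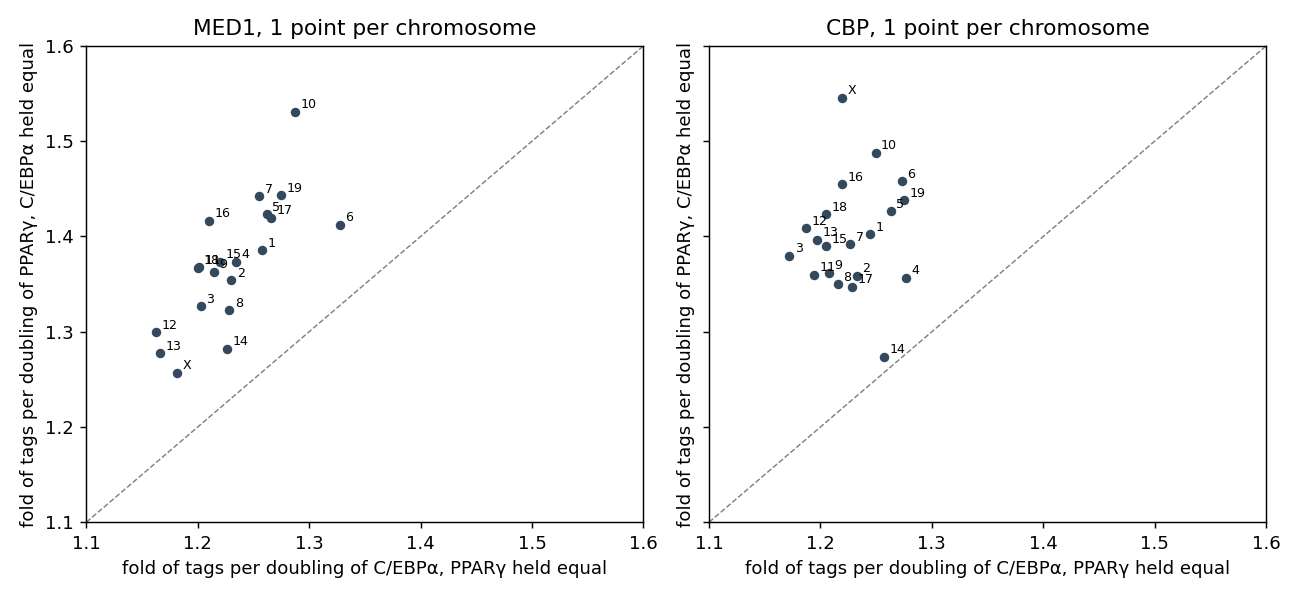
Fold of coactivator tags per doubling of PPARγ at equal C/EBPα (vertical) against fold per doubling of C/EBPα at equal PPARγ (horizontal), 1 point per chromosome, for MED1 and CBP in DMSO. The dashed line marks equal values; at full depth all 20 points lie above it in both panels (19 and 18 after thinning to equal depth), chromosome 14 being closest to it for CBP.

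The order of the factors did not hold in every class of site for MED1. At C/EBPα-only sites MED1 was 1.23 times higher per doubling of PPARγ and 1.38 times per doubling of C/EBPα. At the 789 sites with at least 20 tags of each factor the values were 1.28 and 1.37. At shared sites they were nearly level, with 1.25 and 1.22, and at PPARγ-only sites 1.36 and 1.30. For CBP the PPARγ value stayed above the C/EBPα value in these classes, with 1.31 against 1.17 at C/EBPα-only, 1.35 against 1.14 at shared and 1.59 against 1.15 at PPARγ-only sites. At the 789 sites CBP gave 1.21 and 1.19.

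Ranks placed the factors differently from the model for MED1, whose order turned at shared and PPARγ-only sites. Over all 50074 sites MED1 had a Spearman rho of 0.195 with PPARγ and 0.197 with C/EBPα, and CBP 0.25 and 0.23. Over the 11034 shared sites MED1 had a Spearman rho of 0.23 with C/EBPα and 0.115 with PPARγ, whereas CBP had 0.21 with C/EBPα and 0.33 with PPARγ. Over PPARγ-only sites MED1 gave 0.21 and 0.06, and CBP 0.14 and 0.20. At C/EBPα-only sites MED1 gave 0.20 and 0.14, and CBP 0.17 and 0.20. MED1 was the shallowest of the 4 libraries and these values are low. MED1 and CBP were more alike with each other, with a rho of 0.58 at shared sites.

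Much of the difference between sites was not described by the model. Spearman's rho between observed tags and those expected from both factors was 0.31 for MED1 and 0.36 for CBP over 50074 sites. The Pearson dispersion was 8.005 for MED1 and 8.79 for CBP, where counting error alone gives a value near 1. Adding the other coactivator to the model lowered all 4 values, to 1.14 and 1.099 for MED1 and 1.19 and 1.097 for CBP. A product of both log2 signals, each less its mean, was added instead and had a fold of 1.0006 for MED1 and 0.981 for CBP. A value of 1 means that the folds of both factors multiply in the model. Across the C/EBPα classes the fold was not constant. MED1 per doubling of PPARγ was 1.13 in the lowest C/EBPα class, 1.51 in class 4 and 1.41 in the highest. CBP gave 1.27, 1.47 and 1.43. A single product term thus does not describe the classes.

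Coactivator signal was also compared at equal summed signal of both factors. In class 3 of 5 by sum, 14.6 to 19.9 units, MED1 averaged 11.1 units (10.8 to 11.4) where PPARγ led by more than 4-fold, 14.8 (14.5 to 15.1) where C/EBPα led by less than 2-fold, and 7.72 (7.51 to 7.94) where C/EBPα led by more than 4-fold. CBP gave 8.20 (7.99 to 8.41), 9.29 (9.08 to 9.50) and 5.95 (5.80 to 6.10). In class 4 MED1 was 17.1, 19.3 and 11.2 units, and CBP 13.4, 12.7 and 8.44. In these 2 classes both coactivators were thus lowest at the sites most strongly led by C/EBPα on the deposited scale. At the 4-fold margins the mean sums were 16.9 and 17.2 units in class 3 and 24.98 and 24.5 in class 4. With C/EBPα divided by the ratio of the own-list medians the gap between the ends narrowed. In class 3 MED1 was then 8.63 (8.40 to 8.87) at the PPARγ-led end and 8.38 (8.11 to 8.66) at the C/EBPα-led end, and CBP 6.62 (6.45 to 6.78) and 6.37 (6.18 to 6.57), with overlapping intervals. In class 4 MED1 was 14.5 against 11.9 and CBP 10.8 against 8.78. All these signals are per window, which is 230 bp at C/EBPα-only sites and 186 bp at the others. The part of window length in the gap was not tested.

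The mixed sites at equal sum were also more often shared. In class 3 the share of shared sites was 7.42% where PPARγ led by more than 4-fold, 27.5% where C/EBPα led by less than 2-fold and 2.41% where C/EBPα led by more than 4-fold. How far peak class and balance each go with the coactivators was not tested. In class 5 the sums were not equal, with a mean of 56.6 units where PPARγ led by more than 4-fold and 76.1 where C/EBPα did. MED1 was still 34.1 against 25.7 and CBP 24.3 against 15.1 there.

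**Figure D5:**
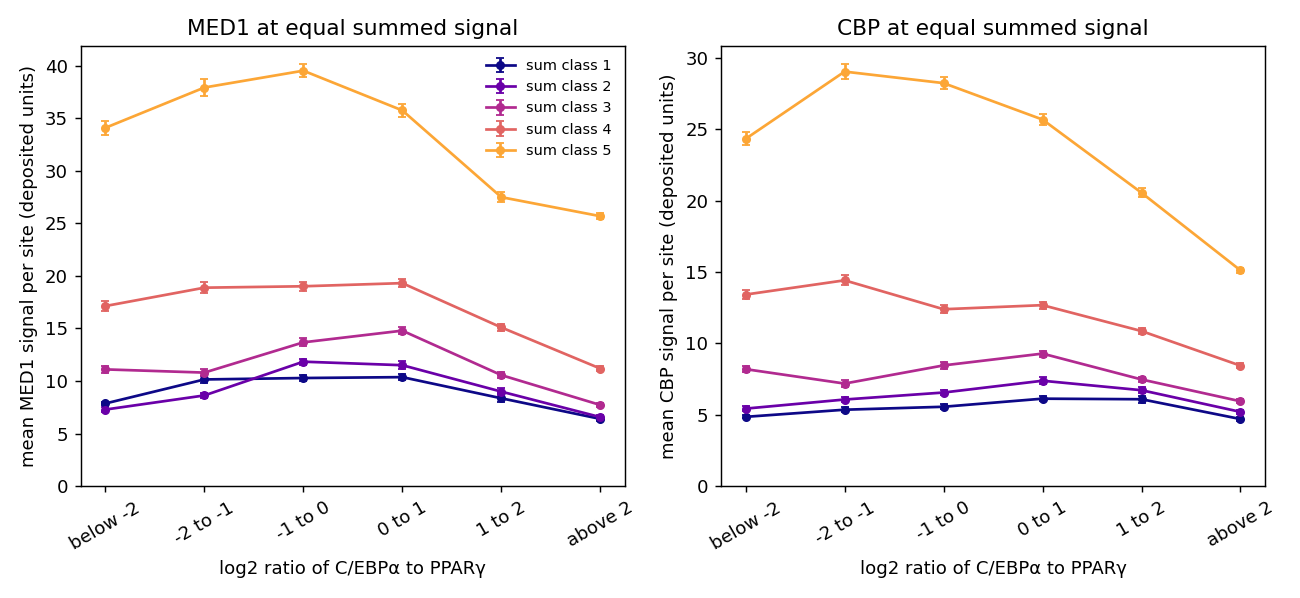
Mean MED1 (left) and CBP (right) signal per site in DMSO, in deposited units, across 6 classes of the log2 ratio of C/EBPα to PPARγ, with 1 line per class of sites by summed signal of both factors and exact 95% counting intervals as bars. In each of the 5 classes the lowest value of each line lies at the right end, where C/EBPα leads by more than 4-fold. For CBP the intervals of both ends overlap in classes 1 and 2. With C/EBPα divided by the ratio of own-list medians they overlap in class 3 for both coactivators and, for CBP, also in classes 1 and 2. Signals are per window, which is 230 bp at C/EBPα-only sites and 186 bp at the others.

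Sites with nearly 1 factor alone were compared last. At PPARγ-only sites with at most 1 C/EBPα tag, MED1 averaged 9.55 units (9.34 to 9.76) in the lowest of 4 classes by PPARγ, 7.95 and 7.30 in the next, and 13.8 (13.6 to 14.1) in the highest, where PPARγ averaged 21.3. CBP there was 4.78, 4.87, 5.09 and 10.4 (10.2 to 10.5). At C/EBPα-only sites with at most 1 PPARγ tag, MED1 was 6.10 (5.90 to 6.31), 5.74, 6.92 and 9.48 (9.18 to 9.80), with C/EBPα at 29.8 units in the highest class. CBP was 4.73, 4.88, 5.33 and 6.77 (6.57 to 6.98). The highest class of PPARγ thus had more of both coactivators than the highest class of C/EBPα. A cap of 1 tag is stricter for PPARγ, whose library is deeper, so the 2 sets are not matched in the other factor. Their windows differ as well, with 186 bp at PPARγ-only and 230 bp at C/EBPα-only sites.

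Some strong sites had no coactivator tags. Of 2263 sites with at least 50 tags of the factors added together, outside regions of high background, 208 (9.19%, 8.03 to 10.5) had 0 MED1 tags and 88 (3.89%, 3.13 to 4.77) had 0 CBP tags. Both were 0 at 33 sites (1.46%, 1.01 to 2.04). Without MED1 were 87 of 800 sites led by PPARγ (10.9%, 8.80 to 13.2), 64 of 606 within 2-fold (10.6%, 8.23 to 13.3) and 57 of 857 led by C/EBPα (6.65%, 5.08 to 8.53). The limit of 50 tags is lower in units for PPARγ, whose library is deeper, so these groups were not matched in signal. Median PPARγ was 54.5 units where PPARγ led, and median C/EBPα was 119 units where C/EBPα led. The ratio of MED1 to CBP at these strong sites was 1.35 where PPARγ led (1.32 to 1.39), 1.49 within 2-fold (1.45 to 1.53) and 1.77 where C/EBPα led (1.73 to 1.82). These groups are made by balance, while the ratios given above were taken by peak class. By peak class the strong sites gave 1.56 at PPARγ-only (1.50 to 1.63) and 1.47 at shared sites (1.45 to 1.50). At C/EBPα-only sites the ratio was 2.49 (2.34 to 2.65), the highest of these, whereas over all sites that class had the lowest. These are 186 sites and include chr17:39984676-39984906, named above. It had 1020 units of MED1 and 188 of CBP against class means of 49.0 and 19.7, and the ratio without it was not computed.

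MED1 was several times above expectation at some strong sites. Among 249 such sites with at least 20 expected MED1 tags, the first was chr7:35923645-35923831, with 135 MED1 tags against 25.8 expected, 5.24 times (4.39 to 6.20). The fifth, chr7:35926552-35926738, lies close to it and had 115 tags against 26.4, 4.36 times (3.60 to 5.24). CBP there was 1.43 (1.01 to 1.95) and 1.16 (0.797 to 1.63) times expected. A site at chr6:115461540-115461726 had 225 MED1 tags against 49.6, 4.54 times (3.96 to 5.17), and lies close to the second site high in both factors. Sites this close are not separate regions. The PPARγ-only site chr11:60022941-60023127 had 99 MED1 tags against 20.6, 4.81 times (3.91 to 5.86), with 172 units of PPARγ and 15.5 of C/EBPα.

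At 11 of these 249 sites MED1 was 0. The site chr9:40449461-40449647 had 95.9 units of PPARγ and 214 of C/EBPα, with 35.4 MED1 tags expected and 0 seen, while CBP had 15 tags. At chr19:6268830-6269016 27.4 MED1 tags were expected and 0 seen, with 25 CBP tags against 28.9 expected. CBP was 0 at 4 of 306 sites with at least 20 expected CBP tags. One of them, chr8:10012395-10012581, had 79.1 units of PPARγ and 46.4 of C/EBPα and 1 MED1 tag. Above expectation, CBP reached 3.39 times (2.67 to 4.24) at chr19:9097513-9097699, where MED1 was 1.54 times expected (1.06 to 2.16). A PPARγ-only site on chromosome X, chrX:166435931-166436117, had 131 CBP tags, 3.33 times expected (2.79 to 3.96), and MED1 at 0.886 times (0.606 to 1.25).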

How the data were processed

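ChIP-seq values came from a PPARγ and a C/EBPα peak list with positions and a tag signal per peak window, deposited by the authors. The submitters' processing notes name build mm9 and the tools Bowtie, HOMER, FastQC and edgeR, with no version. Settings, scaling and any pooling were not stated in the labels or headers used. Which samples lie behind each peak list was not established here. In DMSO 0.27% of PPARγ peaks had 0 PPARγ tags, and 0.50% of C/EBPα peaks had 0 C/EBPα tags. The deposited peak score of the authors was not used. Of 8 signal columns per list the 4 DMSO columns were used and 4 were not. The PPARγ column names no replicate, so it may hold 1 or both labelled samples. Window lengths were 186 bp (PPARγ) and 230 bp (C/EBPα, other in 3 peaks). Gene positions and sequences of mm9 were not used here.

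Tags were recovered from the steps and analysed with Python 3.11.15, numpy 2.4.6, pandas 2.3.3, scipy 1.17.1 and statsmodels 0.14.6. The pseudocount was 1 and the fold 2. Intervals are exact (Clopper-Pearson for shares and ratios of tags, Poisson for sums). The Poisson model regressed coactivator tags on log2(signal + 1) of both factors. On tags simulated from that same form it returned the folds put in, which checks the code only. Counting error in the factor signals and other forms were not simulated. A region of 1 Mb counted as high background where 5 or more unshared peaks of a list had a median of the other factor's tags at least 3 times that of all such peaks. With the mitochondrial chromosome, 34 regions and 949 sites were so marked. Named sites had at least 50 tags of the factors added together, outside those regions: the 5 at each end of balance, the 5 shared sites with the highest lower rank, and the 5 at each end of observed to expected MED1 and CBP (at least 20 expected), of which the text gives a part. Sites, lists and classes were chosen with earlier results of these data known. The classes by sum, the neighbours, the ranks, the sites with nearly 1 factor alone and the sites without coactivator tags came later, with the values known.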

Additional observations from a re-analysis of the deposited data

How the results depend on the processing

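No paired analysis was possible because each antibody has 1 DMSO column, which names no replicate. No replicate could be left out for the same reason. Of the 10 main results, no median and no fold per doubling changed direction, and counts of peaks have no direction to change. Under other settings 21 values stayed within counting error or, for counts, within 1.5 times. The rest moved further and are given below. The folds per doubling moved past counting error under 13, 12, 11 and 12 settings, in the order given next. The folds per doubling are given in the order MED1 with PPARγ, MED1 with C/EBPα, CBP with PPARγ and CBP with C/EBPα. They were 1.541, 1.326, 1.564 and 1.294 with a pseudocount of 5, and 1.324, 1.257, 1.328 and 1.241 with PPARγ and C/EBPα tags thinned to the shallower depth. The PPARγ list alone gave 1.286, 1.279, 1.432 and 1.241, the C/EBPα list alone 1.371, 1.296, 1.426 and 1.168, and shared sites alone 1.250, 1.221, 1.354 and 1.142. Sites with at least 20 tags of each factor gave 1.282, 1.369, 1.208 and 1.189, means over the classes of the other factor 1.351, 1.219, 1.376 and 1.238, and sites without the top 1% by sum 1.329, 1.204, 1.372 and 1.220. In the C/EBPα window MED1 gave 1.379 and 1.275 and CBP with C/EBPα 1.259. Without high background MED1 with PPARγ was 1.386. Chosen after seeing the data were PPARγ-only sites (1.356, 1.295, 1.588 and 1.153), C/EBPα-only sites (1.231, 1.383, 1.308 and 1.175) and the other coactivator as a covariate (1.139, 1.099, 1.192 and 1.097). PPARγ stayed above C/EBPα in 14 of 14 settings for CBP and in 12 of 14 for MED1, the exceptions being C/EBPα-only sites and sites with at least 20 tags of each factor.

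The median log2 ratio over PPARγ peaks and over C/EBPα peaks was -1.43 and 1.22 with each factor divided by its own median, -0.62 and 1.25 at peaks where both factors together had at least 20 tags, -0.61 and 1.18 with a pseudocount of 5, and -0.86 and 1.85 after thinning. Division by the own median left 2631 PPARγ peaks led by C/EBPα and gave 2345 C/EBPα peaks led by PPARγ. Peaks with at least 20 tags are fewer, and there 4287 PPARγ peaks were led by PPARγ, 2332 PPARγ peaks by C/EBPα and 5470 C/EBPα peaks by C/EBPα. Median depth was 2 MED1 tags per peak in both lists, so single weak sites carry little. The rescaled classes by sum, the chromosomes at equal depth and the values per 100 bp in the report were also chosen after seeing the data.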
